A study of Gossypium hirsutum with 6 samples.

Results

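Leaves of the heat-sensitive upland cotton (*Gossypium hirsutum*) genotype Earlistaple 7 were compared after 8 h at 45 °C and in unheated control seedlings kept at 28 °C. The transcripts described are those at 10 RPKM or more in either of these 2 libraries, which were 16475 of the 421554 transcripts listed and belonged to 9930 of 148415 components. RPKM counts reads per kilobase of transcript, normalised to the reads of the library, so it measures a share of each library and not an absolute amount of RNA. A component is a group of transcripts that share an identifier apart from its last number, in the form that a de novo assembly gives. Seedlings of both genotypes were about 20 days old, had grown in days of 14 h at 28 °C and nights at 22 °C, and were set apart only by genotype and heat in the labels. The other libraries came from Earlistaple 7 after 4 h at 45 °C and from the heat-tolerant genotype Nan Dan Ba Di Da Hua without heat and after 4 or 8 h at 45 °C. Heat began around midday. Control leaves were held at 28 °C for 4 or 8 h per the labels' protocols, and the labels do not say which of these the control library of a genotype had. Time of day may therefore differ between the 8 h library and its control, and its part was not tested. The number of plants per library is not given in the sources used here. Values of 1 genotype in all 3 of its libraries are given in the order control, 4 h and 8 h.

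In plants, heat unfolds proteins and activates heat shock transcription factors, which switch on genes for chaperones such as the small heat shock proteins and HSP70 and HSP90. Transcripts for photosynthesis and growth, which make up much of the leaf messenger pool, are often reduced under heat. Which of the cotton transcripts belong to these classes could not be told, because the files pair no identifier with a gene name and 0 identifiers matched the 99454 genes of the RefSeq table (assembly Gossypium_hirsutum_v2.1). The labelled leaf tissue could not be checked against marker genes for the same reason. Transcripts are therefore described by level and by ratio, and with 1 library on each side no difference could be set against a spread between plants.

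The sensitive 8 h library had 0.766 times the read depth of the sensitive control, as recovered from the spacing of low values, and the sensitive 4 h library 0.946 times. The number of reads itself is unknown. Among the 6 libraries relative depth ran from 0.702 to 1. In the sensitive 8 h library 12307 transcripts reached 10 RPKM, against 10922 in the control. The median over all listed transcripts was 0.62 RPKM in the 8 h library and 0.42 RPKM in the control. The shallower library thus held the higher median, and the part of depth in the comparison was not tested.

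After 8 h of heat, 4827 of the 16475 transcripts (29.3%) exceeded their control value by 2-fold or more and 3816 (23.2%) were 2-fold or more below it, on the scale of log2(RPKM + 1). The remaining 7832 lay within 2-fold. At least 8-fold higher were 1414 transcripts (8.58%), and 785 (4.76%) were at least 8-fold lower. Counted over components, each represented by its transcript with the highest mean of the 2 libraries, 2674 of 9930 (26.9%) were at least 2-fold higher and 2271 (22.9%) lower. Past 8-fold were 778 (7.83%) and 473 (4.76%) components. With a limit of 1 RPKM instead, 18.8% of transcripts were higher and 8.25% lower. The median log2 ratio over all 16475 transcripts was 0.099, its quartiles were -0.90 and 1.26, and the extremes were 9.46 and -6.22. These shares describe the whole set that the 10 RPKM limit admits, and no part of it is singled out by them.

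As a yardstick without heat, the control libraries of the tolerant and the sensitive genotype were compared by the same rule. Of 13216 transcripts, 12.6% had a tolerant value 2-fold or more above the sensitive one, and 2.19% a value 2-fold or more below it. The heated library therefore stood farther from its control than the unheated libraries of the genotypes stood from each other, in both directions. Whether that gap exceeds the spread between plants of 1 genotype was not tested.

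**Figure D1:**
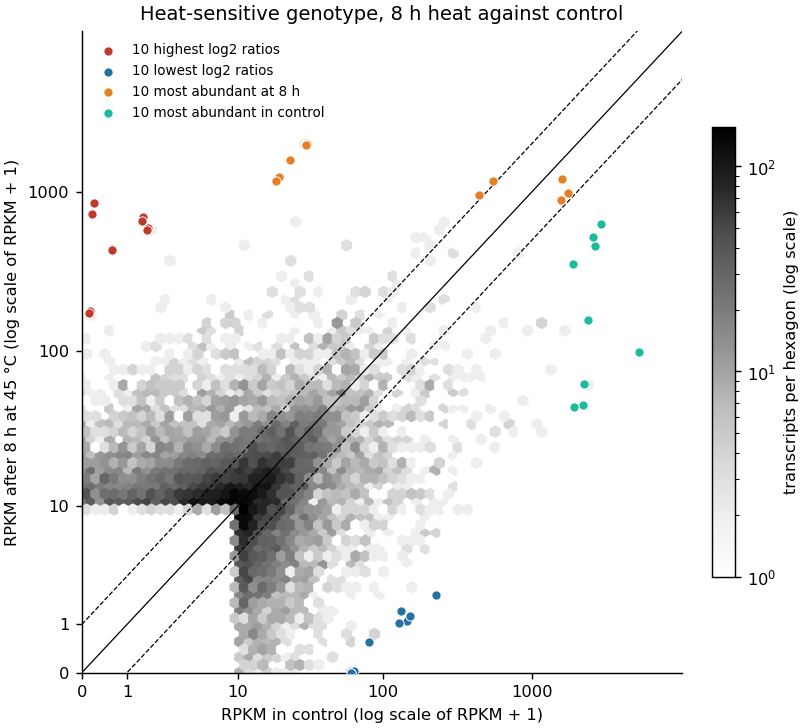
RPKM of each of the 16475 transcripts after 8 h of heat (vertical) and in the control (horizontal) in the heat-sensitive genotype, both on log axes of RPKM + 1; darker hexagons hold more transcripts, the solid line marks equal values and the dashed lines 2-fold. The empty lower left corner is set by the limit of 10 RPKM, and the most abundant control transcripts (green) all lie below the lower dashed line.

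How a transcript passed the limit decided much of its ratio. In both libraries 6754 transcripts (41.0%) were at 10 RPKM or more, and of these 736 (10.9%) were at least 2-fold higher after heat and 1060 (15.7%) lower. Another 5553 (33.7%) passed in the 8 h library alone and were necessarily higher there. Of these, 4091 were at least 2-fold higher, with medians of 14.4 RPKM at 8 h and 4.38 RPKM in the control. The 4168 (25.3%) that passed in the control alone held 2756 at least 2-fold lower, with medians of 5.68 RPKM at 8 h and 14.6 RPKM in the control. These medians follow from the limit, since a transcript that passed in 1 library alone was below 10 RPKM in the other. Of the 1414 transcripts at least 8-fold higher, 1352 were below 10 RPKM in the control and 62 were at or above it. Of the 785 at least 8-fold lower, 619 were below 10 RPKM at 8 h and 166 were not. Near the limit the shares changed little: of 1712 transcripts whose higher value lay between 10 and 11 RPKM, 26.9% were at least 2-fold higher and 16.6% lower, against 26.7% and 15.7% of 2042 just below it, between 9 and 10 RPKM.

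**Figure D2:**
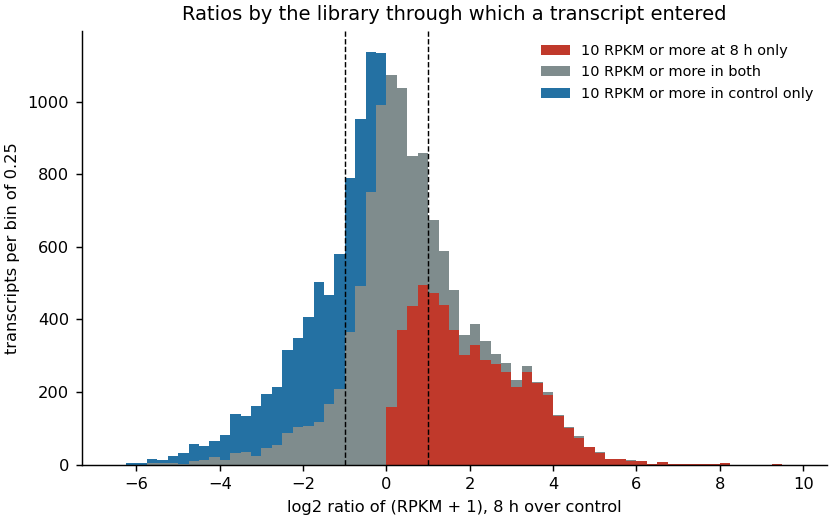
Number of transcripts by log2 ratio of (RPKM + 1), 8 h of heat over control, in bins of 0.25, stacked by whether a transcript reached 10 RPKM at 8 h only (red), in both libraries (grey) or in the control only (blue); dashed lines mark 2-fold. The red and blue groups lie on 1 side of 0 because of the limit, while the grey group, free of that constraint, has a median of -0.066.

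Which direction held more transcripts depended on how the libraries were scaled. RPKM as deposited gave 4827 higher and 3816 lower, so that 55.8% of the transcripts past 2-fold were higher. Under median-of-ratios scaling over the 6 libraries, which moved every log2 ratio of RPKM by -0.37, 3924 were higher and 4923 lower (44.4% higher). Under upper-quartile scaling, which moved it by -0.41, the counts were 3850 and 5072 (43.2% higher). Among transcripts at 10 RPKM or more in both libraries, more were lower than higher under each of the 3 scalings. Median-of-ratios left 454 on the higher side against 1609 on the lower, and the upper quartile 432 against 1678. Past 8-fold under all 3 scalings at once were 1114 transcripts on the higher side and 785 on the lower. The lower count equals the deposited one by construction, since both other scalings moved every ratio down. Past 8-fold, median-of-ratios alone gave 1122 higher and 1039 lower transcripts, and 614 and 619 components. The upper quartile alone gave 1117 and 1073 transcripts, and 613 and 637 components.

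The highest ratio belonged to comp91513_c0_seq1. The sensitive genotype had 0.2, 94.6 and 843 RPKM of it, with the 8 h value 8.91-fold above that at 4 h. The tolerant genotype had 0.68, 34.9 and 16.4 RPKM. At 8 h it thus stood 51.6-fold higher in the sensitive than in the tolerant library. The second, comp104700_c0_seq1 of another component, measured 0.17, 81.8 and 728 RPKM in the sensitive genotype and 0.57, 29.8 and 13.9 RPKM in the tolerant one. The ratio of the first to the second lay between 1.16 and 1.19 in all 6 libraries, so the pair gave a single pattern: low without heat, moderate after 4 h in both genotypes, and far higher at 8 h in the sensitive genotype alone among these libraries.

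The transcripts ranked 3 to 10, 1 per component, behaved otherwise. Each was higher at 8 h in the tolerant than in the sensitive library. The third measured 0.59, 359 and 437 RPKM in the sensitive genotype, and 1.21, 810.5 and 1409 RPKM in the tolerant one. The fourth measured 1.55, 769 and 696 RPKM in the sensitive genotype and 5.26, 1867 and 3854 RPKM in the tolerant one, with an 8 h value 0.181 times that of the tolerant genotype. The ninth measured 0.13, 383 and 179 RPKM in the sensitive and 0.19, 769 and 433 RPKM in the tolerant libraries. Among the 10, the ninth and the tenth alone had a 4 h value more than 2-fold above the 8 h value in the sensitive genotype. Ranks 3 to 10 were also close to duplicates in pairs: 3 with 5, 4 with 6, 7 with 8 and 9 with 10. At 8 h the sensitive value was 0.310 times the tolerant one for ranks 3 and 5, and 0.181 times for 4 and 6. It was 0.292 times for ranks 7 and 8, and 0.414 times for 9 and 10. Each such pair is therefore read as a single pattern and not as separate observations. Under the stricter rule of a fixed proportion over the 6 libraries, 4 of the 10 had a partner in some other component.

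At the other end, comp106952_c0_seq2 had the lowest ratio. It stood at 226, 36.9 and 2.06 RPKM in the sensitive genotype, 110-fold lower at 8 h than without heat, and at 192, 14.5 and 1.29 RPKM in the tolerant one. The second, comp122120_c0_seq1, measured 146, 6.67 and 1.1 RPKM in the sensitive and 88.0, 3.3 and 1.81 RPKM in the tolerant genotype, and was 133-fold lower at 8 h than in the control in the sensitive genotype. Both were thus high in the unheated leaves of either genotype and near 1 or 2 RPKM in either 8 h library.

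All 10 transcripts with the lowest ratios were at 57.6 RPKM or more in both controls. Of these, 3 were listed at 0 in the sensitive 8 h library. The fifth measured 62.6, 0.36 and 0 RPKM in the sensitive and 65.9, 0.81 and 0 RPKM in the tolerant genotype. The seventh and eighth stood at 61.5 and 61.4 RPKM in the sensitive control, at 0.19 RPKM each at 4 h and were listed at 0 at 8 h. In the tolerant control they stood at 76.5 and 76.2 RPKM, so this pair gave a single pattern. The ratio of the second to the fourth lay between 1.07 and 1.16 in all 6 libraries, so that pair did as well. The sixth measured 0.02 RPKM at 8 h against 63.8 RPKM in the sensitive control. The ninth stood at 132, 1.9 and 1.41 RPKM in the sensitive and 60.3, 4.64 and 7.17 RPKM in the tolerant libraries.

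**Figure D3:**
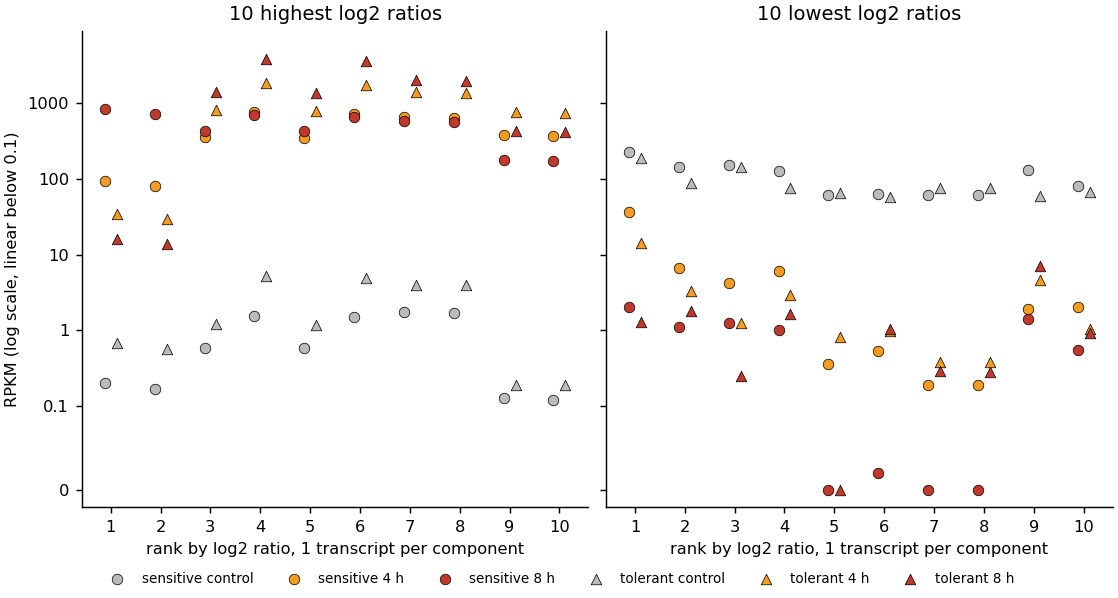
RPKM in each of the 6 libraries for the 10 transcripts with the highest (left) and the 10 with the lowest (right) log2 ratio of sensitive 8 h over sensitive control, 1 per component, in order of rank; circles are sensitive and triangles tolerant libraries, grey is control, orange 4 h and red 8 h, and the vertical axis is logarithmic above 0.1 RPKM and linear below it. At left the first pair has its red circles far above its red triangles, 843 against 16.4 RPKM for the first, while ranks 3 to 10 show the reverse.

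The top of the abundance ranking was largely replaced. None of the 10 most abundant control transcripts was among the 10 most abundant at 8 h, and the lists of 100 and 1000 shared 16 and 309 transcripts. The 8 h list of 10 shared 8 with the sensitive 4 h library and 4 with the tolerant 8 h library. The 10 most abundant transcripts held 1.55% of all RPKM at 8 h and 3.14% in the control, and the top 100 held 6.10% and 12.4%. The transcript at rank 100 stood at 273 RPKM at 8 h and 453 RPKM in the control. The top of the sensitive 8 h library thus held a smaller share of RPKM than that of its control, and the part of depth in this was not tested. At 4 h the top 10 held 3.79% and the top 100 9.65%. In the tolerant genotype the top 10 held 3.36% in the control and 3.76% at 8 h, and the top 100 11.7% and 12.9%.

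All 10 most abundant control transcripts were at least 2-fold lower at 8 h. This list is not limited to 1 transcript per component, and ranks 2, 3 and 10 came from the same component. Rank 4, of another component, had ratios like theirs. Ranks 6 and 7 were near duplicates, with 2245 and 2207 RPKM in the sensitive control and 62.5 and 61.8 RPKM at 8 h. Ranks 1 and 8 stood at 0.0362 and 0.0371 times their 4 h values at 8 h. The 10 are therefore not read as separate observations. The fourth measured 520 RPKM at 8 h against 2547 RPKM in the sensitive control, and in the tolerant genotype 22.1 RPKM at 8 h against 2620.1 RPKM in its control. The fifth measured 158 RPKM at 8 h and 2339 RPKM in the control. The sixth and the ninth were already low at 4 h: the sixth measured 2245, 62.1 and 62.5 RPKM and the ninth 1892, 62.0 and 44.3 RPKM in the sensitive genotype. The eighth was still high at 4 h, with 2191, 1234 and 45.8 RPKM. Within these 10 transcripts the low level was thus reached by 4 h for ranks 6, 7 and 9, and only by 8 h for ranks 1 and 8. Each of these readings rests on few separate patterns.

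Among the 10 most abundant transcripts at 8 h, 7 exceeded their control level by 2-fold or more and 3 were within 2-fold. Here too the list is not limited to 1 transcript per component. The ninth kept near a fixed proportion to the seventh over the 6 libraries, and the tenth to the eighth. A group of 5 from 2 components, including the highest of the library, were 62.5-fold to 66.9-fold higher at 8 h than in the control and stood at 0.346 to 0.372 times their 4 h values. The fifth of the list measured 1571, 757 and 1196 RPKM in the sensitive genotype, and was thus lower at 4 h than at either other time. The seventh measured 549, 1754 and 1165 RPKM. The eighth measured 1737, 1261 and 982 RPKM in the sensitive genotype, against 1818, 625 and 265 RPKM in the tolerant one.

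The ratio was lower the higher the level in unheated leaves. To keep the classes free of the sensitive control, which enters the ratio, all transcripts were classed by their RPKM in the tolerant control, with no other limit. The class below 1 RPKM, 314264 transcripts with a median log2 ratio of 0.12, is left out of the figure. The median log2 ratio of sensitive 8 h over sensitive control was 0.026 over 95819 transcripts from 1 to 10 RPKM, -0.24 over 8273 from 10 to 30, -0.52 over 2423 from 30 to 100, -1.68 over 599 from 100 to 300 and -2.82 over 176 at 300 RPKM or more. In the highest class 80.1% were at least 2-fold lower and 6.82% higher, with medians of 79.4 RPKM at 8 h and 539 RPKM in the control. The class from 100 to 300 RPKM was split, with 59.6% at least 2-fold lower and 22.2% at least 2-fold higher. Among the 16475 transcripts the order of the classes from 10 RPKM upward was the same under both other scalings.

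**Figure D4:**
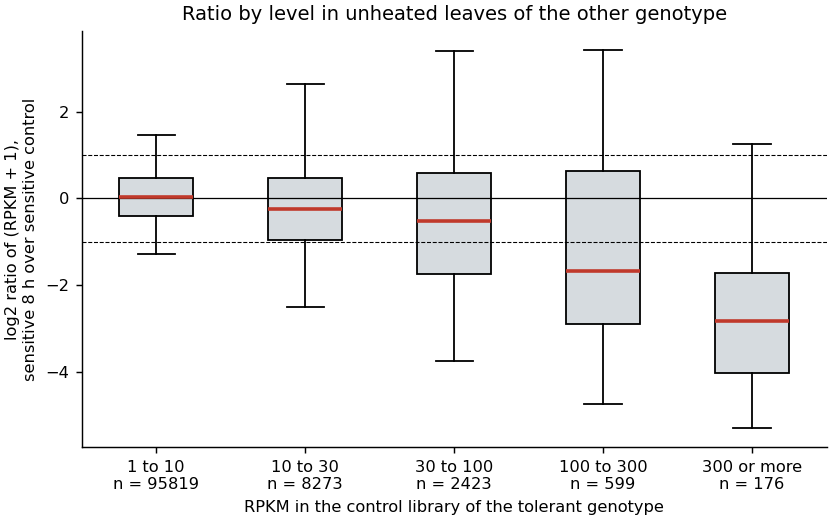
Log2 ratio of (RPKM + 1), sensitive 8 h over sensitive control, for all transcripts at 1 RPKM or more in the tolerant control. Transcripts are grouped by RPKM in that control library of the tolerant genotype, which the ratio does not use. Red lines are medians, boxes the quartiles and whiskers the 5th and 95th percentiles over transcripts, not over plants. The medians run from 0.026 to -2.82 as the level goes up, and the upper whisker of the class from 100 to 300 RPKM still reaches 3.42.

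The comparison of 4 h with control shares the control library with that of 8 h, so the values are set side by side and nothing is drawn from their likeness. The 4827 higher transcripts had medians of 3.67 RPKM in the sensitive control, 15.1 at 4 h and 19.0 RPKM at 8 h. They held 4.22%, 23.8% and 23.1% of all RPKM in these libraries. Their median log2 ratio of 8 h over 4 h was 0.34, and 1002 of them were at least 2-fold above 4 h while 95 were at least 2-fold below it, an order that their choice by the 8 h value favours. Over all 14347 transcripts at 10 RPKM or more in the 8 h or 4 h library the shares were 8.48% and 5.69%. The 95 had medians of 4.41, 76.7 and 26.8 RPKM, and the share of RPKM they held was 0.146%, 4.52% and 1.58%. The 95 were chosen as below 4 h, so their values are a description. Scaling mattered here too: median-of-ratios moved every log2 ratio of 8 h over 4 h by -0.29 and upper-quartile scaling by -0.33. The median of 0.34 became 0.069 and 0.026, and the count above 4 h became 688 and 647 against 210 and 250 below it.

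The 3816 lower transcripts had medians of 23.9, 6.56 and 5.35 RPKM in the sensitive genotype and held 33.1%, 9.30% and 5.30% of all RPKM. Against 4 h, 549 of them (14.4%) were at least 2-fold lower at 8 h and 81 (2.12%) at least 2-fold higher. Over all 16475 the shares were 4.49% and 7.96%. The choice of the group by its 8 h value favours the lower side. Under median-of-ratios scaling the counts in the group were 791 lower and 30 higher, and under upper-quartile scaling 869 and 28. The 785 transcripts at least 8-fold lower than control held 14.6%, 2.36% and 0.781%. The 7832 within 2-fold had medians of 14.0, 13.8 and 13.9 RPKM.

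**Figure D5:**
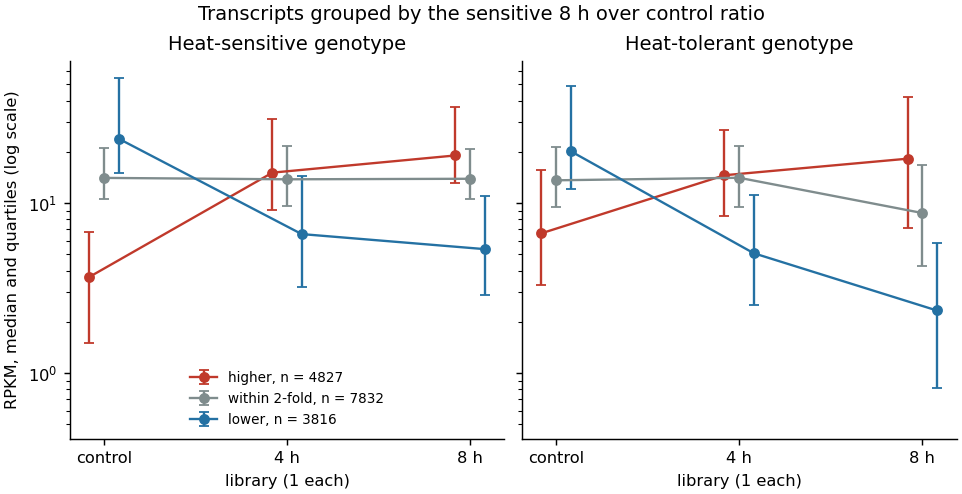
Median RPKM (points) and quartiles over transcripts (bars), on a log axis, of the transcripts at least 2-fold higher (red), within 2-fold (grey) and at least 2-fold lower (blue) at 8 h than in control of the sensitive genotype, in the 3 sensitive libraries (left), which include those that defined the groups, and the 3 tolerant libraries (right), which did not. At 8 h the blue group has a tolerant median of 2.33 RPKM against a sensitive one of 5.35 RPKM, and the grey group 8.73 against 13.9 RPKM, gaps that were smaller under both other scalings.

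The tolerant genotype shares no library with this comparison. By the same 10 RPKM rule applied to its own libraries, 36.4% of 17766 transcripts exceeded their control level by 2-fold or more at 8 h and 38.2% were lower by as much. Of the 3816 transcripts lower in the sensitive genotype, 3416 (89.5%) were also lower by 2-fold in the tolerant one, against 44.0% of all 16475. These 3416 were 47.1% of the 7250 that were lower in the tolerant genotype among the 16475. All but 1 of the 785 that were 8-fold lower in the sensitive genotype also passed 2-fold on the lower side in the tolerant one. Of the 4827 higher, 2626 (54.4%) were also at least 2-fold higher in the tolerant genotype, against 21.3% of all 16475, and they were 74.8% of the 3513 higher there. Across the 16475 transcripts the log2 ratios of both genotypes had a Pearson's r of 0.733 and a Spearman's rho of 0.729, as a description over transcripts that share libraries and were admitted by their level.

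Set directly against each other, the tolerant 8 h library was lower than the sensitive 8 h library for most of the transcripts described, with a median log2 ratio of -0.65 over all 16475. These were admitted by their level in the sensitive libraries, 5553 of them through the sensitive 8 h library alone. That choice favours the sensitive 8 h value, and how much of the gap comes from it was not tested. The 3816 in the lower group had a median of -0.92, with a tolerant 8 h level of 2.33 RPKM against a sensitive one of 5.35 RPKM. The tolerant and sensitive controls of that group stood at 20.2 and 23.9 RPKM. The 7832 within 2-fold had a median of -0.69, with a tolerant 8 h level of 8.73 RPKM against a sensitive one of 13.9 RPKM. These gaps depended on the scaling, which moved every log2 ratio of tolerant over sensitive 8 h by 0.65 under median-of-ratios and by 0.32 under upper-quartile scaling. Under median-of-ratios the median was -0.088 over all 16475, -0.48 in the lower group (2.98 against 4.35) and -0.10 within 2-fold (11.2 against 11.3). Under upper-quartile scaling these medians were -0.37, -0.70 and -0.40.

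Against its own control, the tolerant 8 h library was lower by 2-fold or more for 3188 (40.7%) of the 7832 within 2-fold and higher for 873 (11.1%). The lower share was near the 44.0% of all 16475, and the higher share was below their 21.3%. The 3188 had medians of 16.1, 12.8 and 13.4 RPKM in the sensitive genotype and 16.5, 11.1 and 3.76 RPKM in the tolerant one, and their choice by both ratios fixes a low tolerant 8 h value. The difference between the genotypes was not tested, since each value is that of 1 library.

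A part of the higher group was high in unheated tolerant leaves. Of the 4827 transcripts, 3243 (67.2%) were also at least 2-fold above the tolerant control, whereas 1534 (31.8%) were within 2-fold of it and 50 were at least 2-fold below it. The 1534 had medians of 4.54, 17.6 and 20.3 RPKM in the sensitive genotype, and 16.7, 14.6 and 15.4 RPKM in the tolerant one, and the gap between their controls is fixed by this choice. For the 8-fold group a stricter limit was set, and 525 of 1414 (37.1%) were also at least 8-fold above the tolerant control. That share is not comparable with the 67.2% at 2-fold. Of the 1414, 352 (24.9%) were within 2-fold of the tolerant control and 13 were at least 2-fold below it. The median of those 525 was 0.44, 11.7 and 28.0 RPKM in the sensitive and 0.76, 17.1 and 41.9 RPKM in the tolerant genotype. Choosing transcripts by a high ratio favours low values in the sensitive control, and how much of the gap between controls comes from that choice was not tested. Of the 3816 lower transcripts, 3222 (84.4%) were also at least 2-fold below the tolerant control. Both ratios use the same sensitive 8 h value. The 2 controls were within 2-fold of each other for 3570 of the 3816 lower and 3044 of the 4827 higher transcripts. High shares are thus favoured by construction, and nothing is drawn from their size.

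Transcripts of a component mostly had like ratios. How reads were divided among them is not given, so they are not read as separate observations. Of the 3133 components with 2 or more transcripts in the set, 807 had all of them at least 2-fold higher, 647 all lower and 1202 all within 2-fold. Only 35 held both a higher and a lower transcript, while 241 mixed higher transcripts with some within 2-fold, and 201 lower ones with some within 2-fold. The range of log2 ratios within a component had a median of 0.19 and was under 1 in 2701 components (86.2%). Among the transcripts of a component that were in the set, the most abundant differed between the 8 h and control libraries in 832 components (26.6%). Transcripts that stood alone in their component were at least 2-fold higher in 26.1% of 5061 cases and lower in 23.5%, against 32.8% and 23.4% of 1000 transcripts from components of 21 or more.

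The number of loci behind these counts may be smaller than the number of transcripts. Values above 0 throughout were listed for 16196 transcripts. Of these, 3808 (23.5%) ran in proportion to a transcript outside their own component, within a distance of 0.02 on centred natural logarithms over the 6 libraries. When all transcripts linked in this way were merged, 14274 remained, with 4124 of them past 2-fold on the higher side and 3290 on the lower. The shares past 2-fold, 28.9% and 23.0%, were close to those without merging.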

How the data were processed

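The authors deposited 1 RPKM value per transcript and library, with 2 decimals, per the file headers. How reads were assembled, aligned and counted, and whether by strand, is not given in the sources used here. Each of the 6 groups (2 genotypes, each without heat and after 4 or 8 h) held 1 library, so no test was run, no p-value is given and no counting interval could be computed. Ratios are log2((RPKM + 1)/(RPKM + 1)) for transcripts that reach 10 RPKM in at least 1 of the libraries compared; plain ratios of RPKM are given for single transcripts, and none against a library listed at 0. The 1 RPKM added to each value understates ratios of low transcripts on this scale. Relative depth came from the spacing of low values. The 10 highest and 10 lowest ratios (1 per component) and the 10 most abundant transcripts of each library were described, and the 2 highest and 2 lowest ratios named. Members, lists and limits were chosen with earlier results of these data known. Alternatives were pseudocounts, filters, median-of-ratios and upper-quartile (75th percentile) scaling, component sums and merged transcripts; comparison with both controls, counts under all 3 scalings a mean of the 2 controls as baseline, and rescaled 8 h levels against 4 h and between genotypes were added after the data were seen. Steps were tested on simulated data. Python 3.11.15, pandas 2.3.3, numpy 2.4.6 and scipy 1.17.1 were used.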

Additional observations from a re-analysis of the deposited data

Results flagged for a closer look

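Opposite directions at 8 h were found for 646 of the transcripts (409 components), which were higher by 2-fold or more in the sensitive and lower by 2-fold or more in the tolerant genotype, each against its own control; the difference was not tested. They were 13.4% of the 4827 higher in the sensitive genotype, whereas 44.0% of all 16475 were lower in the tolerant genotype. They had medians of 3.77, 16.1 and 21.8 RPKM (control, 4 h and 8 h) in the sensitive genotype and 19.8, 8.50 and 4.15 RPKM in the tolerant one. For 503 of the 646 the tolerant control was at least 2-fold above the sensitive control, so the controls differed in the direction that both ratios need. The tolerant control was that far above the sensitive one for 35.9% of the 4827 higher and for 11.3% of all 16475. With the mean of the 2 controls as a common baseline 197 transcripts showed the pattern, at medians of 20.2 RPKM in the sensitive and 1.60 RPKM in the tolerant 8 h library. Under all 3 scalings 515 of the 646 showed it.

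The reverse, at least 2-fold lower in the sensitive and higher in the tolerant genotype, was found for 14 transcripts (12 components), with medians of 7.47 RPKM in the sensitive and 29.0 RPKM in the tolerant 8 h library and of 18.2 and 11.9 RPKM in the controls. They were 0.367% of the 3816 lower in the sensitive genotype, whereas 21.3% of all 16475 were higher in the tolerant genotype. This was not tested either. The count was 9 with the common baseline and 11 under all 3 scalings.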

How the results depend on the processing

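No paired analysis was possible because each group held 1 library, and leaving out a library would leave no comparison. A filter of 1 RPKM in place of 10 gave 32294 higher and 14194 lower transcripts, 18055 and 7542 components and a median log2 ratio of 0.27. No filter gave the same transcript counts, with 18018 and 7527 components. A filter of 20 RPKM gave 2286 and 2250 transcripts, 1379 and 1412 components and a median of -0.022. Requiring 10 RPKM in both libraries gave 736 and 1060 transcripts, 453 and 722 components and a median of -0.066. The share of higher among those past 2-fold was 69.5% at 1 RPKM, 50.4% at 20 RPKM and 41.0% with 10 RPKM in both; these filters change which transcripts enter as well as how many, and the cause was not tested. Choosing transcripts on the tolerant control and 8 h libraries gave 5819 higher and 3416 lower and a median of 0.31. Median-of-ratios scaling turned the median to -0.25 and upper-quartile scaling to -0.29, as their shifts require. Both shifts were downward, so the lower count under all 3 scalings is the deposited one by construction. A pseudocount of 0.1 RPKM (5045 and 4019), component sums (2645 and 2174 components), merged transcripts, both controls (3243 and 3222) and all 3 scalings (3850 and 3816) kept the 2-fold counts within 1.5 times. Requiring both controls or all 3 scalings adds a condition to the deposited rule, so those counts cannot be larger. The median log2 ratio of tolerant over sensitive 8 h in the higher group, -0.26 as deposited, was 0.37 with median-of-ratios and 0.049 with upper-quartile scaling. By the same scalings in turn, that of sensitive 8 h over 4 h, above 0 as deposited, came to -0.23 and -0.27 within 2-fold and to -0.21 and -0.25 over all transcripts. The share of lower transcripts also lower in the tolerant genotype was 84.1% under median-of-ratios scaling. Overlap with the 4 h comparison is not reported, since it shares the control. The total read number, and with it the counting error of each value, is unknown.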

Other observations

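A small group was listed at 0 in the sensitive control although it reached 10 RPKM or more at 8 h. It held 96 transcripts of 73 components, between 10.2 and 98.9 RPKM at 8 h with a median of 16.0 RPKM. Their median was 2.58 RPKM in the sensitive 4 h library, where 26 were listed at 0, and 41.0 RPKM in the tolerant 8 h library, where 77 were at 10 RPKM or more and none was listed at 0. In the tolerant control 46 of the 96 were also listed at 0. The 96 passed the limit through the sensitive 8 h library alone. Of all 16475, 35 were listed at 0 in the sensitive 4 h library, 117 in the tolerant 8 h library and 87 in the tolerant control. The absence of zeros in the tolerant 8 h library therefore does not set the 96 apart. No fold is given for the 96, since a value of 0 in RPKM does not show that a transcript is absent. In the other direction 25 transcripts of 22 components, between 10.4 and 62.6 RPKM in the control, were listed at 0 at 8 h, and 8 of them also in the tolerant 8 h library.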
